A study of Mus musculus with 6 samples.

Results

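Some demethylases that use molecular oxygen to remove methyl groups from histones or DNA were followed in pancreatic stellate cells (PSCs) at 2 oxygen levels. They were the histone demethylases Kdm3a, Kdm4a, Kdm4b, Kdm4c, Kdm5b, Kdm6a and Kdm6b, which carry a JmjC catalytic domain, and the DNA dioxygenases Tet1, Tet2 and Tet3. These 10 genes are a list of names, drawn up with earlier results of these data known, among 55426 features of the table, and all 10 passed the filter on low counts that kept 16207 genes. RNA was sequenced from 6 samples of primary PSCs of C57BL/6 mice, pancreatic cells that can give rise to cancer-associated fibroblasts, 3 kept at 21% O2 (normoxia) and 3 at 1% O2 (hypoxia) for 48 h. Normoxic and hypoxic PSCs alike sat in Matrigel in a transwell insert above organoids of mT3, a mouse pancreatic ductal adenocarcinoma (PDAC) line. The PSCs came from wild-type animals and carried no transgene. PSCs grown without organoids were not analysed here, and the sources do not say whether each RNA sample came from a separate PSC line, so p-values measure the spread between these samples only.

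JmjC and TET enzymes need oxygen, iron and 2-oxoglutarate for each catalytic turn. When oxygen is scarce their activity can drop, and histone or DNA methylation can build up. Transcription of some of these enzymes is known to rise in hypoxia through the hypoxia-inducible factors (HIF), which is often described as a feedback that makes up for the lower activity. Kdm3a and Kdm4 enzymes act on histone H3 lysine 9, Kdm5 on lysine 4 and Kdm6 on lysine 27, and the TET enzymes oxidize methylated cytosine. Only RNA was measured here, not enzyme activity or methylation.

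The normoxic libraries held from 24749601 to 25914892 counts and the hypoxic libraries from 25847719 to 31925054. All 8 genes taken as a check on hypoxia, among them Vegfa, Bnip3 and Car9, were higher at 1% O2. Of 11 fibroblast or stellate markers all were detected, with a summed level from 28437 to 35637 CPM (a gene's counts relative to the library total, scaled by the TMM method) in normoxia and from 30469 to 35314 in hypoxia. Most of this sum came from Col1a1, Col1a2 and Col3a1, at means of 8321, 8181 and 11149.8 CPM in normoxia. Of the 11, Pdgfra and Pdpn were called higher, Lum and Thy1 were called lower and 7 were not called. The 12 macrophage or other immune markers summed to between 839 and 1473 CPM in normoxia and between 439 and 773 in hypoxia, with Cd3e at 0 counts in every sample. Most of this sum came from Lyz2 alone, at a mean of 899.9 CPM in normoxia and 413 in hypoxia. Among 8 epithelial markers, Epcam, Krt8 and Cdh1 lay below the filter on low counts, and the list summed to between 2.88 and 4.02 CPM in normoxia and between 24.7 and 28.3 in hypoxia, where Krt19 alone gave 22.1 ± 1.66 CPM (SD, n = 3). The 7 acinar markers summed to between 10.1 and 12.6 CPM in normoxia and between 8.30 and 9.30 in hypoxia, nearly all of it from Cela1, and Cpa1, Cela2a, Prss2 and Ctrb1 had 0 counts throughout. The 6 endothelial markers summed to between 12.5 and 17.9 CPM in normoxia and between 19.9 and 27.9 in hypoxia, with Tek and Vwf called higher, Kdr called lower, and Pecam1 and Cdh5 not called. A group of 6 proliferation genes, among them Mki67, summed to between 242 and 276 CPM in normoxia and between 84.9 and 98.9 in hypoxia. The part of immune, endothelial and epithelial cells and of proliferation in the results below was not tested. In bulk RNA, fewer cells of a type and less RNA per cell cannot be told apart.

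In hypoxic PSCs, 6 of these 10 demethylase genes were called higher and none was called lower. Those called higher were Kdm3a, Kdm4b, Kdm5b, Kdm6b, Tet1 and Tet2, by 1.64-fold to 3.52-fold. Kdm4a, Kdm4c, Kdm6a and Tet3 were not called. The rule for a call was a more than 1.5-fold difference that also had an adjusted p under 0.05 (the quasi-likelihood test of edgeR). By this rule 34.2% of all 16207 tested genes were called, 18.9% higher and 15.3% lower. The median log2 fold change was 0.84 over the 10 genes and 0.00 over all tested genes. At an unadjusted p under 0.05 by edgeR, 7 of the 10 were higher and 0 lower, against 5416 and 5367 of all 16207 tested genes. DESeq2 and limma-voom each called 6 of the 10 higher and 0 lower. For 7 of the 10, the 6 called and Kdm6a, normoxic and hypoxic samples were fully separate, as they were for 68.9% of all tested genes.

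**Figure D1:**
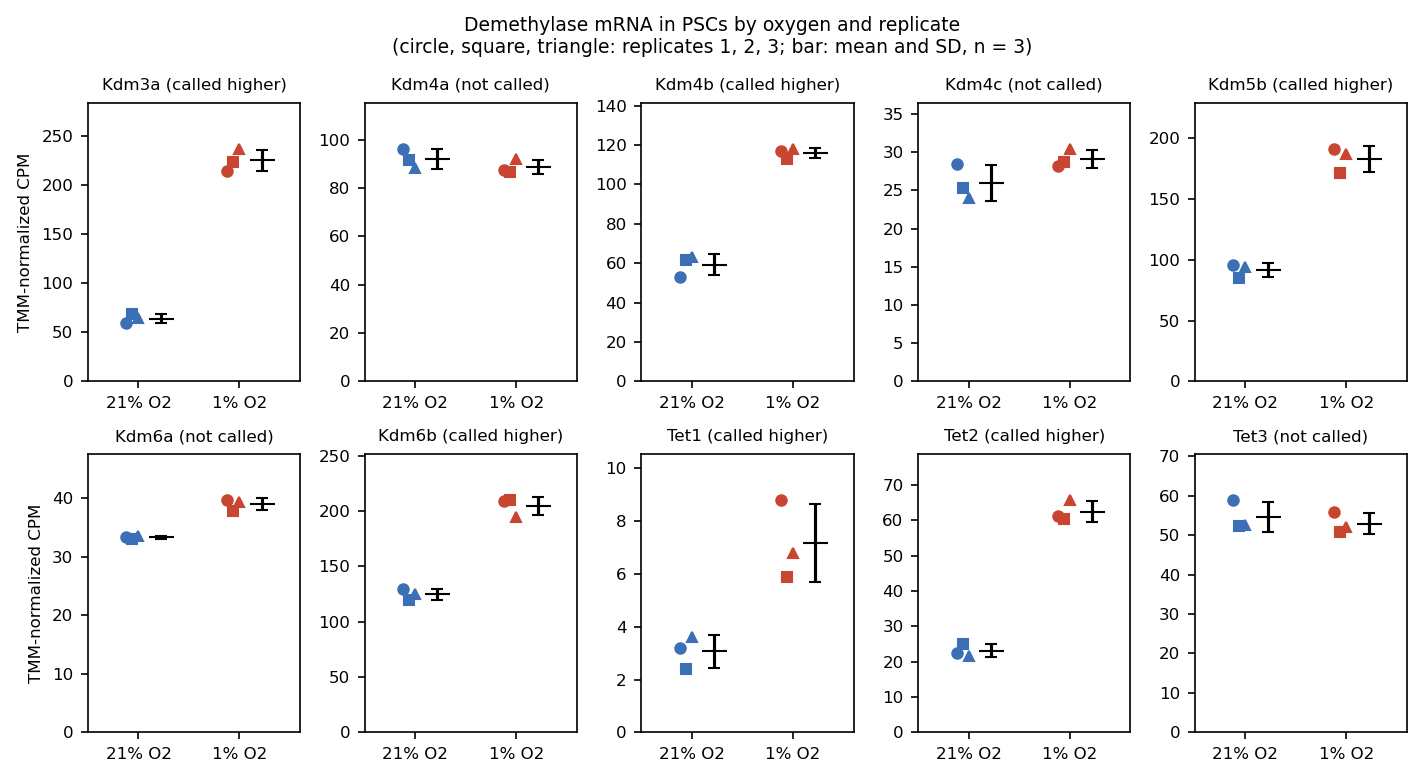
TMM-normalized CPM (vertical axes, linear and starting at 0) of the 10 demethylase genes in each sample at 21% and 1% O2. Circles, squares and triangles are replicates 1, 2 and 3, and bars are the mean and SD of 3 samples. Kdm3a samples sit near 64.1 CPM in normoxia and 225 in hypoxia, while those of Kdm4a and Tet3 share a range.

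Kdm3a, which removes mono- and dimethyl marks from H3 lysine 9, changed most. It was at 59.3, 68.7 and 64.2 CPM in normoxic replicates 1, 2 and 3 and at 215, 224 and 237 CPM in the hypoxic ones. Every hypoxic sample thus lay far above every normoxic one. This gave a log2 fold change of 1.82, with a 95% interval from 1.66 to 1.97 (edgeR adjusted p = 1.14e-07). Kdm3a (ENSMUSG00000053470) lies on chromosome 6 of GRCm38, from 71588972 to 71632990 on the minus strand. Among 14229 genes at a mean of at least 1 CPM, the 5 whose centered log2 CPM over the 6 samples lay closest to that of Kdm3a were Mbd1, Clcn2, Vegfc, Sema4g and Rtkn. Their Euclidean distances ran from 0.112 to 0.128 and their log2 fold changes from 1.77 to 1.84. Over 6 samples in 2 conditions such a distance mainly picks genes with a fold change of like size. Shared regulation was not tested.

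HIF binds DNA at short elements whose core letters are ACGTG or GCGTG. These letters were looked for, on both strands, in the 250 bases before each RefSeq gene start (GRCm38.p6), and 38.6% of 32851 such windows held at least 1 match. Of the 10 demethylase genes, 8 had an entry, with 11 windows among them, and 5 windows from 5 genes held a match. Kdm4b and Kdm6b had no entry. For Kdm3a, which has 3 RefSeq starts, the only match lay in the window of the most upstream start, 27 to 23 bases before it. It is shown because Kdm3a changed most, with the matched letters in capitals and 10 bases on either side, at chr6:71632930-71632954 on the minus strand. By GENCODE this stretch falls inside an annotated Kdm3a exon, since that annotation starts the gene farther upstream.
Kdm3a: gggaggctgtGCGTGtcttgtgaga
A match is a description of the letters and not evidence of binding.

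The Kdm4 enzymes, which remove trimethyl marks from H3 lysines 9 and 36, did not move together. Kdm4b (ENSMUSG00000024201; plus strand of chromosome 17, 56326062 to 56402870) was at 53.1, 61.5 and 63.0 CPM in normoxia and at 117, 113 and 118 CPM in hypoxia. It rose in each hypoxic sample above each normoxic sample, and the log2 fold change was 0.97, with a 95% interval from 0.81 to 1.13 (edgeR adjusted p = 4.25e-06). Kdm4a (ENSMUSG00000033326; minus strand of chromosome 4, 118136957 to 118180043) was at 96.2, 91.6 and 88.3 CPM in normoxia and at 87.5, 86.8 and 92.1 CPM in hypoxia. The conditions overlapped, and the 95% interval of its log2 fold change ran from -0.17 to 0.07, within a 1.5-fold change (0.58 on this scale). Kdm4c (ENSMUSG00000028397; plus strand of chromosome 4, 74242497 to 74405860) was at 28.5, 25.3 and 24.0 CPM in normoxia and at 28.2, 28.7 and 30.4 CPM in hypoxia. Normoxic replicate 1 reached into the hypoxic range, and the log2 fold change was 0.17 with an interval from -0.01 to 0.34 (adjusted p = 0.0829 from edgeR). Over the alternative fits the adjusted p of Kdm4c ran from 0.0233 to 0.313, the lowest of them without normoxic replicate 1, and no fit called it. Kdm4d, the remaining paralog, rested on 9 to 12 counts in normoxia and 15 to 24 in hypoxia, and it was not called (adjusted p = 0.0792 from edgeR).

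Kdm4c is also the gene whose upstream window held the most matches. The window of its downstream RefSeq start, at chr4:74251629-74251878 on the plus strand, lies within the GENCODE gene, outside its exons, and held 4 separate stretches of the searched letters. Of these, 2 were CACGTG, which reads as ACGTG on either strand. It is printed whole because a gene that was not called carried them, with the matched letters in capitals.
Kdm4c: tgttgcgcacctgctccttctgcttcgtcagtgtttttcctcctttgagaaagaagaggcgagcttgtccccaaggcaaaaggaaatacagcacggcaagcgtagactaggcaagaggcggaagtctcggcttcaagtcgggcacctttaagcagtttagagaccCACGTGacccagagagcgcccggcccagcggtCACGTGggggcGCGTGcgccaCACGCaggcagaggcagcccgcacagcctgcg
The single window of Kdm4a held no match.

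Kdm5b (ENSMUSG00000042207; plus strand of chromosome 1, 134560171 to 134635285), which takes di- and trimethyl marks off H3 lysine 4, was at 95.5, 85.2 and 94.1 CPM in normoxia. In hypoxia it was at 191, 171 and 187 CPM, so that the lowest hypoxic sample stood well clear of the highest normoxic one. Its log2 fold change was 1.00, with a 95% interval from 0.85 to 1.15 (edgeR adjusted p = 2.63e-06). Its autosomal paralog Kdm5a rose as well, from 66.0 ± 4.78 to 116 ± 1.74 CPM (SD, n = 3 each), which is a log2 difference of 0.82. Kdm5c, on the X chromosome, was at 135 ± 3.99 and 164 ± 3.02 CPM (SD, n = 3 each) and was below the 1.5-fold threshold. The Y-linked Kdm5d, and Uty, the Y-linked homolog of Kdm6a, had 0 counts in each of the 6 samples, where 3 counts would be 0.0943 to 0.122 CPM. The Y-linked genes Ddx3y and Eif2s3y had 0 counts as well, and Xist, the RNA that coats the inactive X, was at 450.0 to 606 CPM in normoxia and 714 to 869 in hypoxia.

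The Kdm6 enzymes clear methyl marks from H3 lysine 27, where the EZH enzymes place them. Kdm6b (ENSMUSG00000018476; minus strand of chromosome 11, 69398508 to 69413675), the member known to be induced by inflammatory signals, was at 129.6, 119.6 and 125 CPM in normoxia and at 209, 210.1 and 195 CPM in hypoxia. The conditions were well apart, and the log2 fold change of 0.72 (95% interval 0.59 to 0.84, adjusted p = 7.61e-06 from edgeR) was the smallest among the 6 called genes. Exons of Kdm6b overlap those of the antisense gene Kdm6bos over 286 of 6954 bases, and the strand setting of the counting is not given in the sources used here. Macrophages also express Kdm6b. Of 10 tested macrophage or immune markers, 6 were lower in hypoxia and 4, Ptprc, Csf1r, Cd14 and Itgam, were not called, and 2 of the 10 had samples that did not overlap. Lyz2 was among the lower ones (at 899.9 ± 256 CPM in normoxia and 413 ± 119.5 in hypoxia, SD, n = 3 each). The part of these cells in the Kdm6b level was not tested. Kdm6a (ENSMUSG00000037369; plus strand of chromosome X, 18162575 to 18279936), its X-linked paralog that also belongs to an H3 lysine 4 methyltransferase complex, was at 33.3, 33.1 and 33.5 CPM in normoxia and at 39.7, 37.9 and 39.4 CPM in hypoxia. The groups did not overlap, but the difference was 1.17-fold, with a log2 fold change of 0.23 (95% interval 0.11 to 0.35, adjusted p = 0.00489 from edgeR). Of all tested genes 62.7% had an adjusted p under 0.05 at any fold change, so a shift of that kind was common, and over the alternative fits its adjusted p ran from 0.00312 to 0.0904.

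The windows before the starts of Kdm5b and Kdm6a each held 2 stretches of the searched letters, and they are shown side by side because the former gene was called higher and the latter was not. They lie at chr1:134559928-134560177 and chrX:18162325-18162574, both on the plus strand, with matches in capitals. The last 7 bases of the Kdm5b window are exonic in GENCODE.
Kdm5b: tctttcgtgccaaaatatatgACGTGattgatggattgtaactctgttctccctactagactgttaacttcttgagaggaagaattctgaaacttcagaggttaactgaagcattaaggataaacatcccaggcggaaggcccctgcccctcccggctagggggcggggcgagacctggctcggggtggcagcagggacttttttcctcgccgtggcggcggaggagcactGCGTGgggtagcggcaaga
Kdm6a: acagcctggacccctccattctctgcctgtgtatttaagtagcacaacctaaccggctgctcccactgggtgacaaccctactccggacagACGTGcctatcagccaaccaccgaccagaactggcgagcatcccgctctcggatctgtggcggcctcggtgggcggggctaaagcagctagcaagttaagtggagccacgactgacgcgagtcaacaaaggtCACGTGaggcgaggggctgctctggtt
The matches of Kdm5b began 229 and 19 bases before the start, and those of Kdm6a 159 and 27 bases before it.

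Among the TET genes, whose products oxidize methylated cytosine as a step toward its removal, Tet2 changed most. Tet2 (ENSMUSG00000040943; minus strand of chromosome 3, 133463679 to 133545139) was at 22.5, 25.1 and 21.7 CPM in normoxia and at 61.3, 60.2 and 65.7 CPM in hypoxia. The hypoxic values lay far above the normoxic ones, and the log2 fold change was 1.43, with a 95% interval from 1.28 to 1.59 (edgeR adjusted p = 4.52e-07). Exons of Tet2 overlap an antisense gene over 43 of 16870 bases. Tet1 (ENSMUSG00000047146; minus strand of chromosome 10, 62804570 to 62908996) was scarce, at 3.20, 2.39 and 3.61 CPM in normoxia and at 8.80, 5.90 and 6.79 CPM in hypoxia. It rested on 63 to 89 counts in a normoxic sample and 185 to 224 in a hypoxic sample. Its log2 fold change of 1.22 had the widest interval of the 10 genes, 0.76 to 1.68 (adjusted p = 0.000662 from edgeR). Tet3 (ENSMUSG00000034832; minus strand of chromosome 6, 83362373 to 83459084) was at 58.9, 52.3 and 52.6 CPM in normoxia and at 55.9, 50.8 and 52.0 CPM in hypoxia. The conditions overlapped, with a 95% interval of the log2 fold change from -0.20 to 0.10.

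The single RefSeq window of Tet2, at chr3:133544391-133544640 on the minus strand, lies within the GENCODE gene and outside its exons, and is shown for its composition as well as its match. It held 51 CpG sites, against a median of 6 over all windows, and 1 match to the searched letters, 16 to 12 bases before the start.
Tet2: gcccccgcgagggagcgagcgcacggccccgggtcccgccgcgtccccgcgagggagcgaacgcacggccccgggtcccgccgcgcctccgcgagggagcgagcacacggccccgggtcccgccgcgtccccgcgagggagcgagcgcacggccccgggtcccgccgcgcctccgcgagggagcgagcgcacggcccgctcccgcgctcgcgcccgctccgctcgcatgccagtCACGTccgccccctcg
The windows of Tet1 and Tet3 held no match, although Tet1 was called higher. Among the 8 genes with windows, a match was thus present for 3 of the 4 called genes and for 2 of the 4 that were not called. No share of genes with a match was taken over all genes, and the letters were chosen after the values were seen. No conclusion is drawn from these counts.

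**Figure D2:**
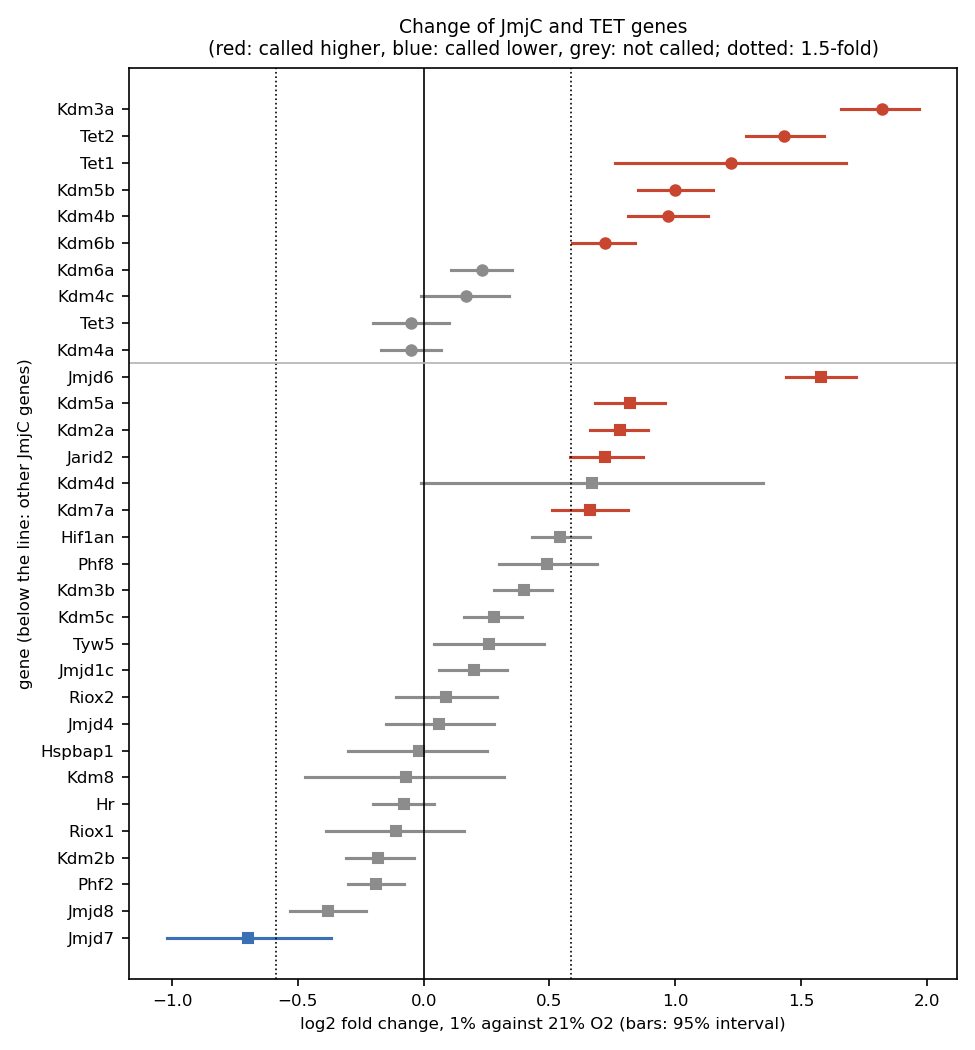
Log2 fold change of hypoxic against normoxic PSCs (horizontal axis, with 95% intervals as bars) for the 10 demethylases (circles, above the line) and the 22 other tested JmjC genes (squares). Red is called higher, blue called lower and grey not called, and dotted lines mark a 1.5-fold change. Kdm3a lies farthest right at 1.82, and the intervals of Kdm4a, Kdm4c, Kdm6a and Tet3 stay inside the dotted lines.

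Since paralogs can take over each other's work, their levels were also compared within each sample, as CPM per kilobase of annotated exon. A ratio within a sample does not depend on how libraries are scaled. The ratio of Tet2 to Tet3 was 0.379, 0.474 and 0.408 in normoxia and 1.08, 1.17 and 1.25 in hypoxia. Tet3 was therefore the more abundant TET transcript in every normoxic sample, and Tet2 in every hypoxic one. The ratio of Kdm4b to Kdm4a was 0.652, 0.793 and 0.843 in normoxia and 1.58, 1.54 and 1.51 in hypoxia. The order of these paralogs also turned in every sample. The ratio of Kdm3a to Kdm3b went from between 1.37 and 1.71 to between 3.95 and 4.33, and that of Kdm6b to Kdm6a from between 4.35 and 4.69 to between 5.96 and 6.68. The ratio of Kdm5b to its X-linked paralog Kdm5c ran from 0.279 to 0.297 in normoxia and from 0.452 to 0.495 in hypoxia. The order within a sample depends on the division by exon length for the pairs with Kdm3b and Kdm5c, since in CPM Kdm3a lay below Kdm3b in each normoxic sample and Kdm5b above Kdm5c in each hypoxic one. The smallest shift was that of Kdm5b against Kdm5a, a difference of 0.18 in mean log2 ratio. The 7 pairs were chosen with their values known, and some share a gene, so that no count over them is given as a result. The exact two-sided permutation test gave p = 0.1 for each pair, also after adjustment over the 7, which is the smallest value that 3 samples against 3 can give.

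**Figure D3:**
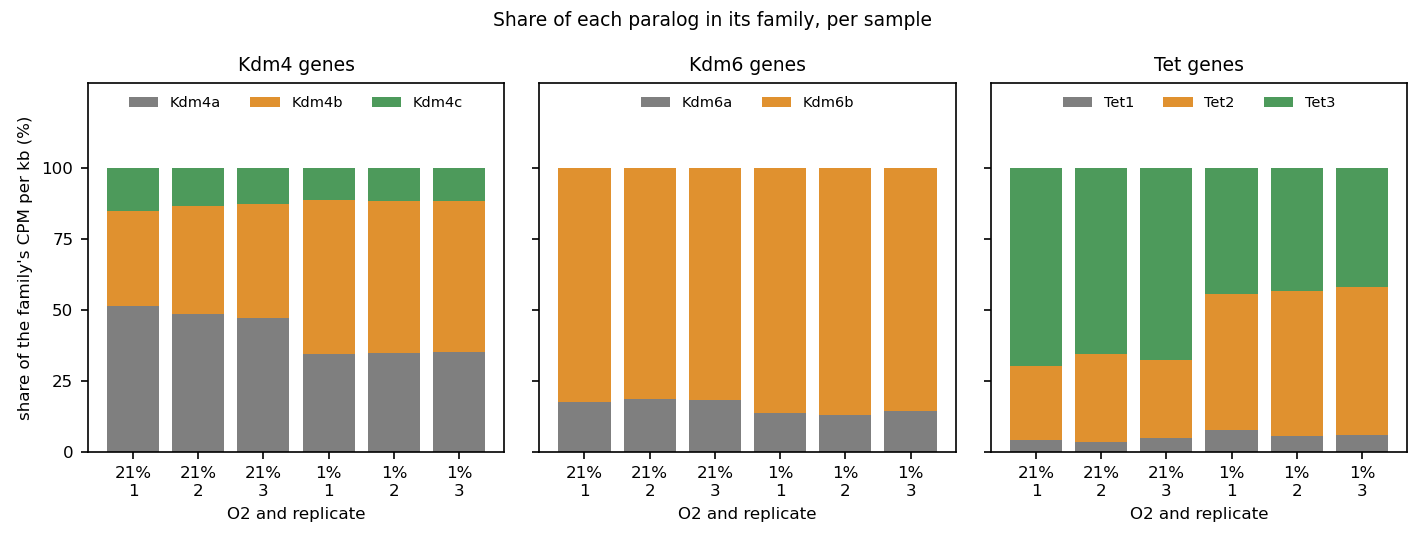
Share (%) of each paralog in the summed CPM per kilobase of its family, per sample, for Kdm4, Kdm6 and Tet genes. In the Tet panel the share of Tet2 goes from a mean of 28.3% in normoxia to 50.5% in hypoxia and that of Tet3 from 67.6% to 43.2%.

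Per kilobase, Kdm6b was the most abundant of the 10 demethylase transcripts in normoxia, at 17.9 ± 0.719 CPM per kilobase (SD, n = 3). Kdm4a followed at 15.9 ± 0.682, Kdm4b at 12.1 ± 1.09 and Kdm3a at 7.79 ± 0.577 CPM per kilobase. Lower down came Kdm5b, Kdm4c, Kdm6a, Tet3 and Tet2, and Tet1 was last at 0.198 ± 0.0401. No neighbors in the normoxic order overlapped over their samples. In hypoxia Kdm6b (29.5 ± 1.21) and Kdm3a (27.4 ± 1.38) stood at the top, and their samples overlapped, from 28.1 to 30.2 and from 26.1 to 28.8 CPM per kilobase. Kdm4b (23.7 ± 0.464) passed Kdm4a (15.4 ± 0.492), and Tet2 passed Tet3. Summed over the 10 genes, the level went from 72.5 ± 0.438 to 124 ± 1.53 CPM per kilobase (SD, n = 3 each), a ratio of 1.71. For the H3 lysine 9 group (Kdm3a and the Kdm4 genes) the ratio of summed levels was 1.78, for Kdm6 1.56 and for the TET genes 1.52. Lengths are of the union of annotated exons, which overstates the length of genes with many isoforms.

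The 34.2% of all tested genes that were called is the background for the counts of the lists that follow. Of 24 other JmjC genes, further Kdm demethylases among them, 22 could be tested. Of these, 5 were higher, 1 was lower and 16 were not called, with a median log2 fold change of 0.23. At an unadjusted p under 0.05 by edgeR, 11 were higher and 4 lower, against 5416 and 5367 of all 16207 tested genes. Kdm2b (log2 fold change -0.18) and Phf2 (-0.19) were among those 4 and were not called. The largest rise was that of Jmjd6, a lysine hydroxylase and not a settled demethylase, from 55.1 ± 3.56 to 164 ± 5.92 CPM (SD, n = 3 each), which is a log2 difference of 1.58 (adjusted p = 1.39e-07 from edgeR). Kdm5a, Kdm2a (log2 fold change 0.78), Jarid2 (0.72) and Kdm7a (0.66) were also higher, and the call of Kdm7a ended under a correction for gene length (0.58). Jarid2 carries a JmjC domain without demethylase activity and works with the H3 lysine 27 methyltransferase. Jmjd7 was lower (log2 fold change -0.70, from 4.56 ± 0.137 to 2.81 ± 0.199 CPM, SD, n = 3 each), but 1307 of its 1960 exon bases are shared with a gene on the same strand, so its reads are uncertain. Of the paralogs of Kdm3a, Kdm3b had a log2 fold change of 0.40 and Jmjd1c of 0.20, and neither reached a 1.5-fold change. Exons of Kdm3b overlap an antisense gene over 3468 of 14095 bases.

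Oxygen-dependent dioxygenases outside the JmjC and TET families gave 9 genes higher and 1 lower of 28 tested, with a median log2 fold change of 0.31. These 10 calls among 28 are close to the share called over all tested genes, 34.2%. The HIF prolyl hydroxylases Egln3 (3.61) and Egln1 (2.16) and the collagen-modifying enzymes P4ha2 (2.47) and Plod2 (1.01) had the largest log2 fold changes among the called genes at a mean of at least 1 CPM. Egln2 and the RNA demethylase Fto were not called, with log2 fold changes of -0.03 and -0.10. The lysine demethylases that use FAD in place of iron were not called either: Kdm1a was at 87.3 ± 3.07 and 84.2 ± 3.12 CPM and Kdm1b at 14.9 ± 0.204 and 11.6 ± 0.571 CPM (SD, n = 3 each). Rcor2, a corepressor that partners with Kdm1a, rose from 15.4 ± 2.59 to 69.3 ± 6.85 CPM (SD, n = 3 each), and Phf21a, a further partner, rose by 0.76 on the log2 scale.

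The lists of methyltransferase genes that place the same marks held 3 called genes of 8 for H3 lysine 9, 4 of 10 for lysine 27, 2 of 15 for lysine 4 and 1 of 7 for lysine 36, where 34.2% of all tested genes were called. Of 8 tested H3 lysine 9 methyltransferase genes, Prdm16 was higher, Suv39h2 and Setdb2 were lower and 5 were not called (median log2 fold change -0.08). In the H3 lysine 27 complex, 3 of 10 were higher and 1 was lower. Its catalytic subunit Ezh1 rose, with a log2 fold change of 0.75 (adjusted p = 9.98e-06 from edgeR), while Ezh2 had a log2 fold change of -0.45 and stayed under the 1.5-fold threshold. Among the accessory subunits Phf19 fell by 1.83 on the log2 scale, resting on 15 to 41 counts in a hypoxic sample. Phf1 (0.89) and Mtf2 (0.74) rose, and exons of Phf1 overlap an antisense gene over 1370 of 3486 bases. Of 15 genes for H3 lysine 4 methylation Cxxc1 was higher (0.60) and Dpy30 lower (-0.61), and of 7 for lysine 36, Nsd3 was higher (0.61) and none lower. These 3 genes lay near the 1.5-fold threshold, and each of their calls ended in some alternative fits.

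Of 11 tested DNA methyltransferases and readers of methylated DNA, 3 were higher and 1 was lower. Uhrf1, which brings the maintenance methyltransferase to replicated DNA, went from 25.4 ± 3.90 to 4.90 ± 0.540 CPM (SD, n = 3 each), which is a log2 difference of -2.37 (adjusted p = 1.01e-06 from edgeR). Dnmt1, that methyltransferase, was at 64.4 ± 1.51 and 45.2 ± 2.31 CPM (SD, n = 3 each) and was not called. Of the 6 proliferation genes 5 were lower in the same comparison, and their part in the level of Uhrf1 was not tested. Mbd1, a reader of methylated DNA, rose by 1.78 on the log2 scale, a change of like size to that of Kdm3a. Dnmt3l, a cofactor of de novo methyltransferases, and the reader Mbd2 also rose (0.80 and 0.59), Mbd2 close to the threshold. Of the 11 tested genes that work with TET enzymes or excise oxidized bases, 4 were higher and 2 lower. Ogt, which binds TET proteins and attaches N-acetylglucosamine to its targets, rose from 149 ± 25.1 to 575 ± 52.4 CPM (SD, n = 3 each). Neil2 and Smug1, which excise damaged bases, rose (log2 fold changes 1.48 and 0.92). Neil3 fell by 2.39 on that scale, resting on 11 to 21 counts in a hypoxic sample. Tdg, the glycosylase that removes the bases oxidized by TET, was not called (log2 fold change -0.07).

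Genes that make or use the cosubstrate 2-oxoglutarate, or the metabolites that inhibit these enzymes, were mainly called in the lower direction. Of 18 tested, 9 were lower, 1 was higher and 8 were not called, with a median log2 fold change of -0.62 against 0.84 for the demethylases. Idh1, which makes 2-oxoglutarate in the cytosol, went from 377 ± 41.3 to 139 ± 3.08 CPM (SD, n = 3 each), which is a log2 difference of -1.44 (adjusted p = 9.02e-07 from edgeR). The mitochondrial Idh3a (-1.30) and Idh2 (-0.90) and the fumarase gene Fh1 (-1.05) had log2 fold changes in the same direction. Ldha, lactate dehydrogenase, was the gene of this list that rose, with a log2 fold change of 1.03.

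**Figure D4:**
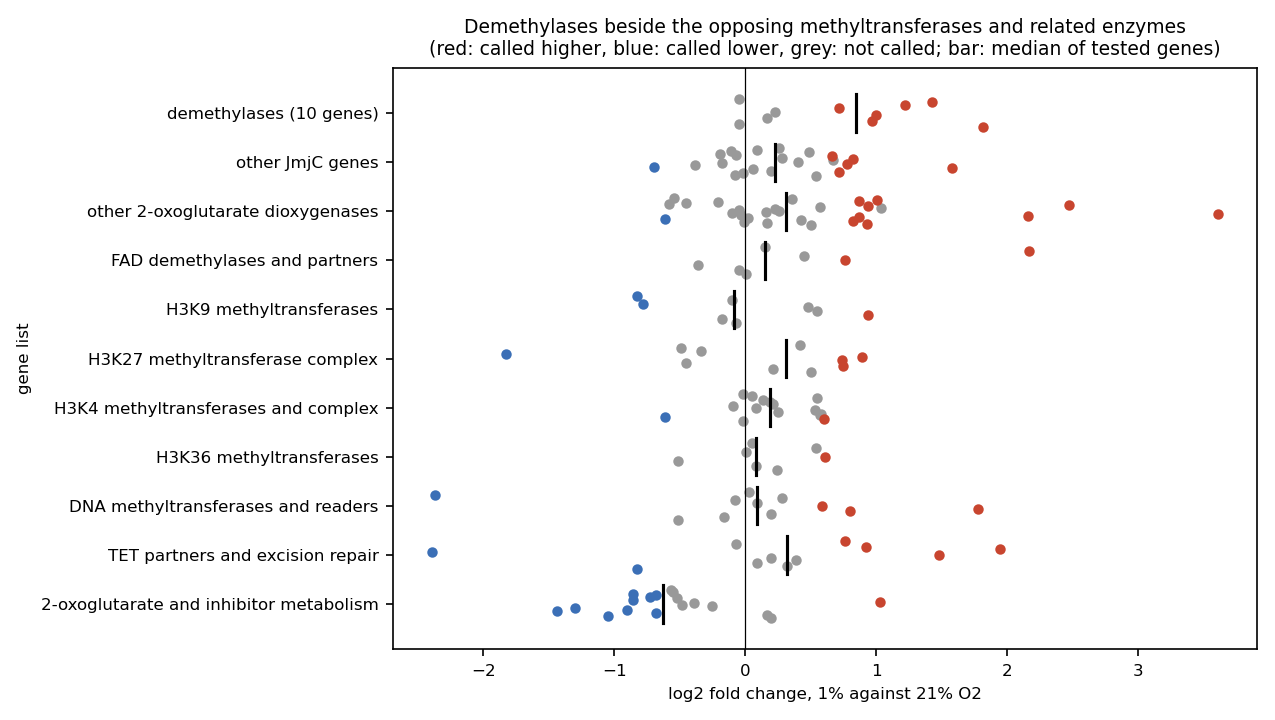
Log2 fold change of hypoxic against normoxic PSCs (horizontal axis) for each tested gene of 11 lists (rows), red called higher, blue called lower and grey not called, with a black bar at each list's median. The median is 0.84 for the 10 demethylases, between -0.08 and 0.32 for the next 9 lists and -0.62 for 2-oxoglutarate and inhibitor metabolism.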

How the data were processed

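Poly(A) RNA of 6 PSC samples, 3 per condition, was sequenced on a NovaSeq-6000. The authors trimmed adapters with Cutadapt, mapped reads to GRCm38 with STAR (version 2.6.1b) and assigned them to genes with RSEM (version 1.3.1, versions per the submitters' processing notes). The deposited values are expected counts (estimated counts per gene), unnormalized and all whole numbers, and were rounded without effect. Gene names, coordinates and exon lengths were taken from GENCODE M21 (GRCm38), which held 55240 of the 55426 features, and the annotation the authors used is not given in the sources used here. Estimated counts divide reads shared by near-identical genes.

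Counts were filtered with filterByExpr, scaled by TMM and tested with edgeR 4.0.16 (limma 3.58.1, R 4.3.3), using its quasi-likelihood test and the Benjamini-Hochberg method over all 16207 tested genes. Standard errors are the log2 fold change divided by the root of F. Totals per library and the CPM of 3 counts are in the report, and such limits cover counting error only. On simulated counts of 16207 genes for this comparison, of which 15992 passed the filter, edgeR recovered 86 of 100 genes changed 2-fold and all 100 changed 4-fold, with 4 false calls. The simulation changed only 200 genes and gave all genes the same dispersion, whereas 5547 genes were called in the data. Its figures are therefore not error rates of these data. The exact permutation test used scipy 1.17.1. Alternatives were DESeq2 1.42.0, limma-voom, the replicate number as a block, other scalings, filters and thresholds, GC and length corrections, and each replicate left out. The genes and lists were chosen with earlier results of these data known, and the paralog pairs and the searched letters after the values were seen. Genes named are the 10 demethylases, their paralogs, up to 4 called genes with the largest change in each other list at a mean of 1 CPM or more, and the 5 nearest profiles. Others (Egln2, Fto, Kdm1a, Kdm1b, Ezh2, Dnmt1, Tdg, Idh2, Jmjd7, Kdm7a and the marker and check genes) were named after their values were seen. So were Kdm2b and Phf2.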

Additional observations from a re-analysis of the deposited data

How the results depend on the processing

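The calls of the 10 demethylases were the same under each of the 19 alternatives that kept the thresholds: Kdm3a, Kdm4b, Kdm5b, Kdm6b, Tet1 and Tet2 higher and none lower. Without a fold change threshold 10168 genes were called, among them 7 demethylases (Kdm6a in addition) and, of the other JmjC genes, 11 higher and 4 lower. At a fold change of 2 there were 3156 genes, 3 demethylases higher (Kdm3a, Tet1 and Tet2), and 1 other JmjC gene higher and 0 lower. Under the length correction 4 other JmjC genes were higher, without Kdm7a. Among the genes of the other lists, the calls of Mbd2, Cxxc1, Dpy30, Nsd3 and Alkbh7 ended without 1 or another replicate or under a scaling or correction, and that of Suv39h2 in DESeq2 with the replicate block (adjusted p = 0.0706). Leaving out each replicate in turn gave 5226 to 5662 genes, 6 demethylases and 5 and 1 other JmjC genes each time. The log2 fold change of Tet3, -0.05, ranged from -0.09 to 0.01 when each replicate was left out, turning sign without normoxic replicate 1. Kdm6a, under the fold threshold throughout, lost its adjusted p under 0.05 in DESeq2 with the replicate block (0.0904). Kdm4c, also under the fold threshold throughout, had an adjusted p under 0.05 without normoxic replicate 1 (0.0233) and with the GC correction (0.0463).

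In edgeR with a replicate block, 5572 genes were called against 5547, 5467 of them shared, and no demethylase call changed. The deviations of same-numbered samples from their group means correlated at 0.142, 0.139 and 0.038 over 16207 genes, and each sample correlated best with its own number. No source says that a number marks a shared line or day, so the samples were not treated as paired.

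Tet1, with the fewest counts of the 10, had the widest interval.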
